A study of Homo sapiens with 2 samples.

Results

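SR proteins and hnRNPs are the main RNA-binding regulators of pre-mRNA splicing, and 38 of their genes were examined among the anti-Flag peaks of TFK-1 cells. The genes were listed by family name, without copies such as HNRNPCL1, HNRNPA1L2 and U2AF1L4, and with earlier results of these data known. They comprised the 12 SR protein genes SRSF1 to SRSF12, the 2 SR-like genes TRA2A and TRA2B, 20 hnRNP genes, and 4 genes of factors that recognize the end of the intron (U2AF1, U2AF2, SF3A1 and SF3B1), out of 20056 protein-coding genes in the RefSeq table of GRCh38.p14. TFK-1 cells are an established human line from a cancer of the extrahepatic bile duct. One group of cells (LV-HOXA5, HOXA5 overexpression) was transduced with a lentivirus for Flag-tagged HOXA5, a homeodomain transcription factor, and the other (LV-HOXA5-NC, normal control) with the control virus, and both were kept as stable lines under puromycin. The peaks of LV-HOXA5 are thus those of a tagged protein made from a virus in 1 line, and not of the HOXA5 of the cells themselves. Each group had 1 CUT & Tag library with an antibody to Flag, so that no difference between the groups has a replicate check and none was tested.

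The 2 families act on the same transcripts in different ways. SR proteins carry stretches rich in arginine and serine and mostly promote the use of an exon by binding enhancer sequences in it, whereas many hnRNPs bind silencer sequences or package the nascent RNA and can block a splice site. The balance between them sets many alternative exons, and the proteins also regulate their own genes, where inclusion of a premature stop codon lowers the mRNA. U2AF2 binds the pyrimidine tract and U2AF1 the AG at the end of the intron, and SF3A1 and SF3B1 belong to the U2 snRNP at the branch point. CUT & Tag maps where a protein sits on DNA, so the peaks described here lie at the genes of these proteins and not at the RNAs that they bind.

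The LV-HOXA5 library held 15778555 fragments and 8043 peaks, and the LV-HOXA5-NC library 1948734 fragments and 635 peaks. A peak had a pileup, which is the number of fragments over its summit, and a fold enrichment, which is that pileup plus 1 over the local background plus 1. At HOXA5 itself, the LV-HOXA5 list had a peak 7 bp from an end of the gene (pileup 44 fragments, exact 95% Poisson interval 32.0 to 59.1), while the nearest LV-HOXA5-NC peak lay 4711092 bp away. Fragments of the viral copy of HOXA5 cannot be told apart from those of the gene. All intervals cover counting error only.

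First, the genes with a peak at either end were counted, to see how much of the splicing factor list the HOXA5 peaks reach. A peak with its nearest edge no more than 1 kb from either end of a gene is called an end peak here. In LV-HOXA5, 18 of the 38 genes (47.4%, exact binomial interval 31.0% to 64.2%) had an end peak, and 12.9% of the 20018 other protein-coding genes did. With peaks within 3 kb of an end or inside the gene, the count was 21 of 38 (55.3%, interval 38.3% to 71.4%), and the share of the other genes was 20.6%. The intervals treat each gene as a separate draw, although paralogs and neighbours are not independent, and they are given as a measure of the size of the list. Each of the 21 genes had 1 peak, and these were 21 different peaks on separate stretches of DNA. The other genes were taken regardless of expression, since RNA levels were not analysed here.

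The hnRNP genes held most of these peaks. Of the 20 hnRNP genes, 13 (65.0%, interval 40.8% to 84.6%) had an end peak in LV-HOXA5, whereas 4 of the 14 SR and SR-like genes (28.6%, interval 8.39% to 58.1%) did, namely SRSF1, SRSF2, SRSF6 and SRSF7. With peaks within 3 kb or inside, the counts were 15 of 20 (75.0%) and 5 of 14 (35.7%). Among the 4 U2AF and SF3 genes, only U2AF2 had a peak. The difference between hnRNP and SR genes was 36.4 percentage points within 1 kb, the intervals of the 2 shares overlapped, and the difference was not tested. It was 21.4 points with peaks of a q-value of 0.001 or less, which removed 3 hnRNP genes and no SR gene.

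**Figure D1:**
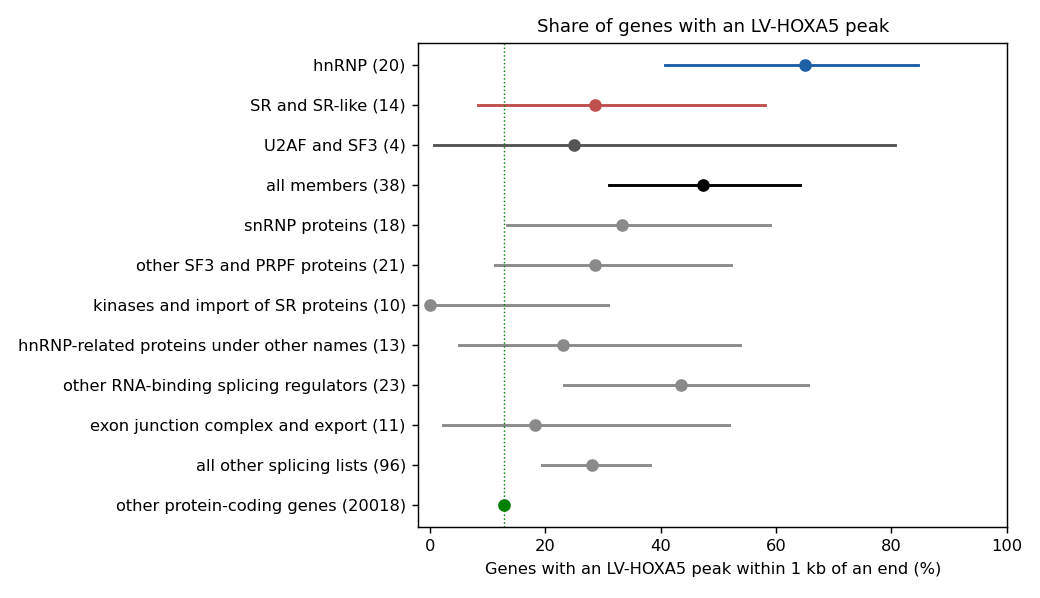
Share of genes with an end peak in LV-HOXA5, no more than 1 kb from the gene (x axis, percent) for the splicing factor families, for other lists of splicing genes and for the other protein-coding genes, with the number of genes in parentheses. Points are shares, bars are exact 95% binomial intervals, and the dotted line marks the 12.9% of the other protein-coding genes; the hnRNP genes have the highest share, 65.0%.

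Of HNRNPA0, HNRNPA1, HNRNPA2B1, HNRNPA3 and HNRNPAB, grouped here by name only, 3 of 5 had a peak. Among their proteins, that of HNRNPA1 binds exonic and intronic silencers and opposes SR proteins at many splice sites. The peak at HNRNPA1 (chr12:54279733-54280721) had the highest pileup of the peaks within 1 kb, 46 fragments (interval 33.7 to 61.4), with a 6.59-fold enrichment, and ended 5 bp before the gene. It also covered an end of CBX5, which encodes a heterochromatin protein and lies next to HNRNPA1. The peak at HNRNPA2B1 (chr7:26200858-26201390) had 28 fragments (interval 18.6 to 40.5) and a 6.15-fold enrichment, and lay 112 bp from HNRNPA2B1 and 53 bp from CBX3, which encodes another heterochromatin protein. The peak at HNRNPA0 (chr5:137754420-137754806), whose protein binds AU-rich mRNA, had 32 fragments (interval 21.9 to 45.2) and a 7.61-fold enrichment. HNRNPA3 and HNRNPAB had no peak inside or within 3 kb, and the peaks nearest to them lay 21.2 and 243 kb away.

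HNRNPC encodes the protein that binds uridine tracts and forms the core of the hnRNP particle, and its peak was the strongest of all 38 genes by fold enrichment. This peak (chr14:21269433-21269856) covered the gene start with 43 fragments (interval 31.1 to 57.9) and an 8.49-fold enrichment, and only 408 of the 8043 LV-HOXA5 peaks had a higher one. HNRNPD, whose protein promotes decay of AU-rich mRNA, had a peak (chr4:82374111-82374460) with 18 fragments and a 5.78-fold enrichment, 120 bp from the gene and 108 bp from its divergent non-coding gene HNRNPD-DT. HNRNPDL, its neighbour and paralog, had none, and its nearest peak lay 48.1 kb away.

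The 4 genes of the hnRNP F/H family, which bind runs of guanine, all had a peak, 3 of them within 1 kb of an end. The peak at HNRNPH2 (chrX:101407661-101408484) covered the start of the gene and an end of GLA, which encodes a lysosomal galactosidase, with 24 fragments (interval 15.4 to 35.7) and a 7.15-fold enrichment. HNRNPH3 had 18 fragments at a 4.59-fold enrichment (chr10:68331644-68331930) and HNRNPF 15 fragments at a 3.45-fold enrichment (chr10:43409004-43409261), the lowest of the 21 genes. The peak of HNRNPH1 (chr5:179623742-179623992) had 20 fragments at a 4.11-fold enrichment and lay 9564 bp inside the gene, where it was 71 bp from an inner start that RefSeq lists.

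The remaining hnRNP genes encode proteins with separate binding preferences. HNRNPL and HNRNPLL, which bind CA repeats, had peaks of very different height. HNRNPL had 72 fragments (interval 56.3 to 90.7) at a 5.83-fold enrichment (chr19:38849946-38850907), the highest pileup of the 38 genes, over a local background of 11.5 fragments, while HNRNPLL had 14 fragments (interval 7.65 to 23.5) at a 4.11-fold enrichment (chr2:38602963-38603209). The peak of HNRNPL lay inside the gene, 1440 bp from its outer end, and covered an inner start. HNRNPK, whose protein binds cytosine-rich RNA and DNA, had the lowest pileup of the 21 genes, 10 fragments (interval 4.80 to 18.4), at a 4.29-fold enrichment (chr9:83980314-83980572), and that peak also covered an end of RMI1, a gene of homologous recombination. HNRNPR had 12 fragments at a 3.81-fold enrichment (chr1:23344411-23344706). Of the 3 genes related to HNRNPU, a nuclear scaffold protein, HNRNPUL1 had 44 fragments at a 5.17-fold enrichment (chr19:41263517-41264397) and HNRNPUL2 24 fragments at a 5.06-fold enrichment (chr11:62727333-62727984), whereas HNRNPU had none within 14.8 kb. HNRNPM had none within 24.7 kb.

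Of the SR genes with a peak, SRSF2 and SRSF8 are relatives of each other. SRSF2, which encodes the protein known as SC35, had the strongest of the SR peaks within 1 kb (chr17:76737210-76737618), with 28 fragments (interval 18.6 to 40.5) and a 5.33-fold enrichment, and this peak also lay 576 bp from an end of MFSD11. SRSF1, the gene of the splicing factor SF2/ASF, had 17 fragments (interval 9.90 to 27.2) at a 4.14-fold enrichment, 23 bp from the gene (chr17:58007269-58007690), and its closest paralog SRSF9 had no peak within 23.3 kb. SRSF7 had 15 fragments at a 4.01-fold enrichment (chr2:38751042-38751445), and its paralog SRSF3 had none within 269 kb. SRSF6 had 13 fragments (interval 6.92 to 22.2) at a 4.34-fold enrichment (chr20:43457485-43458050), and SRSF4 and SRSF5, which are close to it in sequence, had none within 411 and 57.2 kb. SRSF8 had a peak inside the gene only (chr11:95068452-95068825), 1575 bp from its end, with 14 fragments at a 5.56-fold enrichment. SRSF10, SRSF11, SRSF12, TRA2A and TRA2B had none inside or within 3 kb.

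For the factors of the intron end, the peak of U2AF2 (chr19:55653957-55654606) had 28 fragments (interval 18.6 to 40.5) at a 4.69-fold enrichment and lay 429 bp from U2AF2 and 796 bp from CCDC106. U2AF1, the partner of U2AF2, had its nearest peak 155 kb away. SF3A1 and SF3B1 had theirs 103 and 18.0 kb away. Over the 17 genes without a peak, the nearest one lay 12.3 to 411 kb away, with a median of 59.9 kb.

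**Figure D2:**
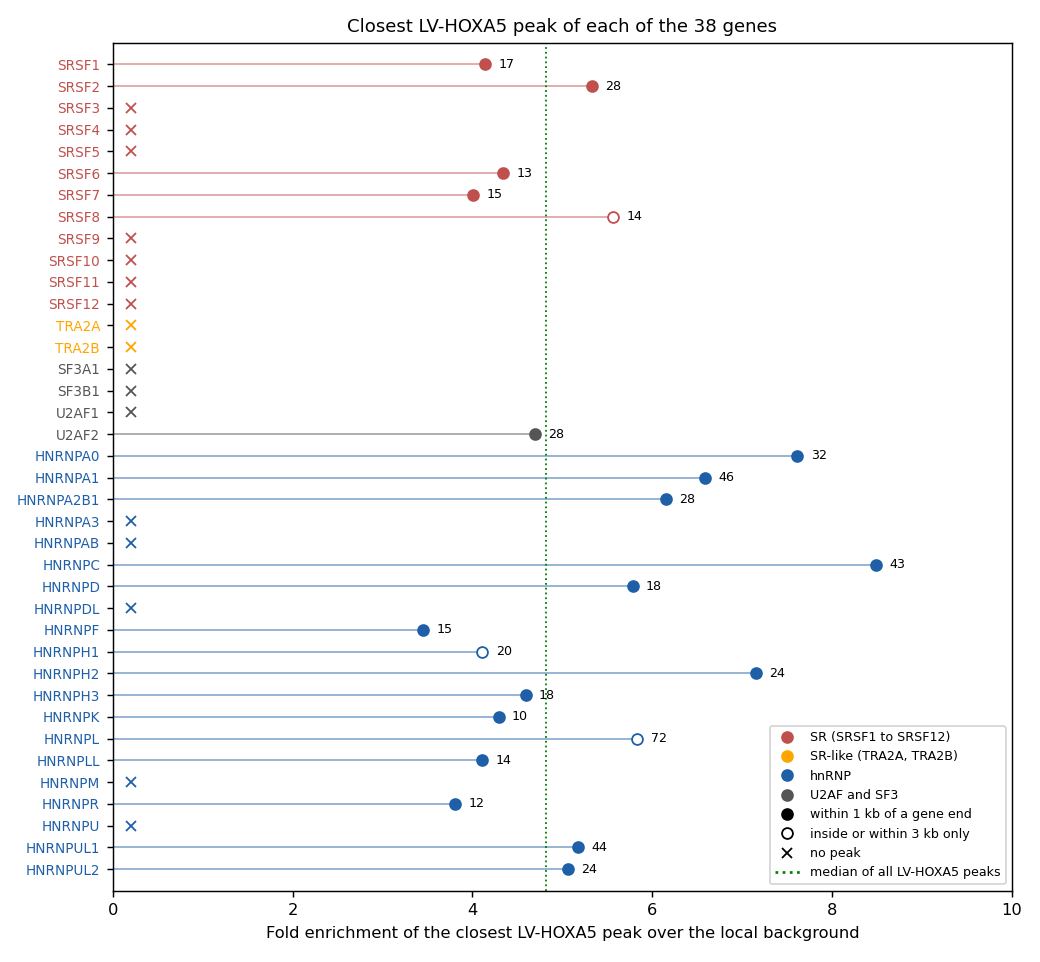
Fold enrichment over the local background (x axis) of the closest LV-HOXA5 peak of each of the 38 genes (y axis), colored by family. Filled circles are peaks within 1 kb of a gene end, open circles are peaks inside the gene or within 3 kb only, crosses are genes without a peak, the number beside a circle is the pileup in fragments, and the dotted line is the list's median of 4.82; HNRNPC has the highest value, 8.49, and HNRNPF the lowest, 3.45.

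In height, the peaks at the splicing factor genes were much like those at other genes. The median fold enrichment of the 18 peaks within 1 kb was 4.88 (range 3.45 to 8.49), and that of the peaks at the 2581 other genes was 4.90 (quartiles 4.22 and 5.77). The median pileup was 21.0 fragments (range 10.0 to 46.0), and 17.0 fragments (quartiles 13.0 and 22.0) at the other genes, over a median local background of 3.34 and 2.60 fragments. Within the list, the 13 hnRNP peaks had a median fold enrichment of 5.17 (range 3.45 to 8.49) and the 4 SR peaks one of 4.24 (range 4.01 to 5.33), so that the SR values lay inside the hnRNP range. Above the median of all LV-HOXA5 peaks, 4.82, were 8 of the 13 hnRNP peaks and 1 of the 4 SR peaks, that of SRSF2.

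The places of the peaks were then compared with the gene starts that RefSeq lists, since a gene end alone does not tell a start from a stop. Starts were listed for 35 of the 38 genes, all but SRSF2, HNRNPA1 and TRA2A, and for 15843 protein-coding genes in all. Of the 35 genes, 18 (51.4%, interval 34.0% to 68.6%) had a peak in LV-HOXA5 no more than 1 kb from a listed start, and 14.1% of the other genes with a listed start did. By family, these were 14 of 19 hnRNP genes (73.7%) and 3 of 12 SR and SR-like genes (25.0%). The inside peaks of HNRNPH1 and HNRNPL entered this count through their inner starts, and the peak of HNRNPUL1, 960 bp from its outer start, covered an inner start. The peak of SRSF8 lay 1533 bp from the nearest listed start and did not.

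Most summits lay upstream of the nearest listed start. This was so for 15 of the 18 genes (83.3%), among them 12 of the 14 hnRNP genes, and for 69.0% of the 2222 other genes with a peak at a start. HNRNPH1, HNRNPL and HNRNPUL1 were counted as upstream of an inner start, and their summits lay inside the gene, downstream of its outer start. The median position of the summit was -222 bp at the splicing factor genes and -123 bp at the other genes, where negative values are upstream. SRSF7, HNRNPH3 and HNRNPK were the exceptions, with summits 23, 139 and 160 bp downstream of a start. The summit at U2AF2 was the farthest, 801 bp upstream.

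**Figure D3:**
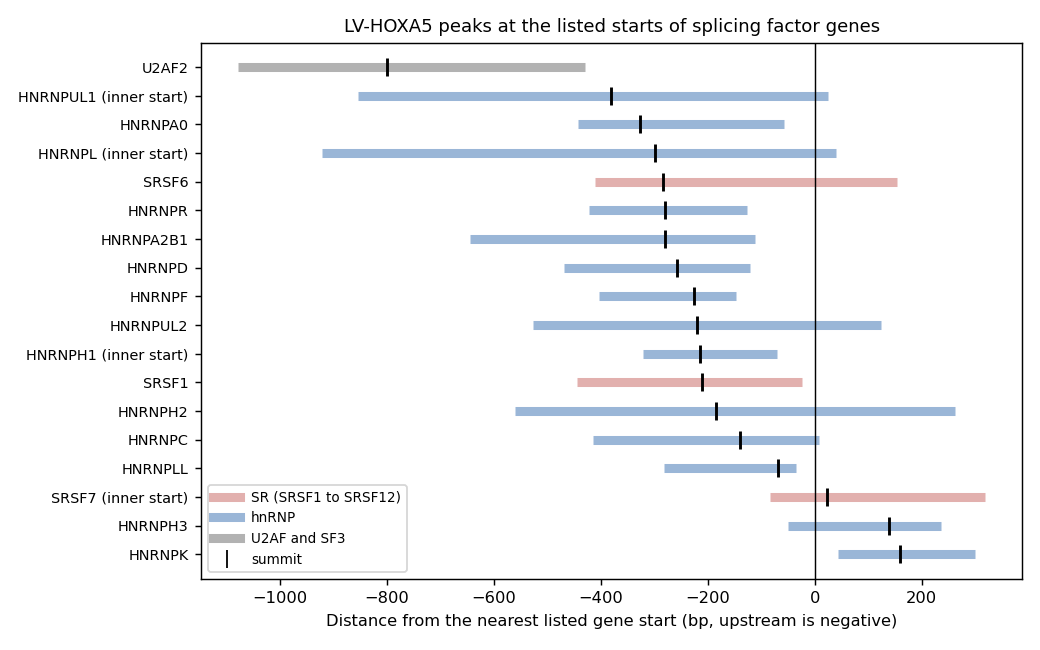
Extent of the LV-HOXA5 peaks (bars) and their summits (black ticks) along the distance from the nearest start listed by RefSeq (x axis, bp, upstream negative), for the 18 genes with a peak within 1 kb of a listed start. Genes marked as inner start have their peak at a start inside the gene; 15 of the 18 summits lie to the left of 0.

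Upstream sequences are shown as examples for 5 genes with a peak over most of the window and for 2 genes without one, HNRNPAB and SRSF3, so that they can be read side by side. Among the windows not shown, those of HNRNPLL and HNRNPA0 had 216 and 194 bases in a peak. Each sequence is the 250 bases before the outermost start listed by RefSeq (GRCh38.p14), on the strand of the gene. Capitals mark TAAT or its reverse complement ATTA, the core that many homeodomain proteins prefer. The windows are HNRNPC (chr14:21269443-21269692, minus strand), HNRNPH2 (chrX:101407972-101408221, plus), HNRNPUL2 (chr11:62727458-62727707, minus), SRSF1 (chr17:58007247-58007496, minus), SRSF6 (chr20:43457646-43457895, plus), HNRNPAB (chr5:178204283-178204532, plus) and SRSF3 (chr6:36594112-36594361, plus).
HNRNPC upstream: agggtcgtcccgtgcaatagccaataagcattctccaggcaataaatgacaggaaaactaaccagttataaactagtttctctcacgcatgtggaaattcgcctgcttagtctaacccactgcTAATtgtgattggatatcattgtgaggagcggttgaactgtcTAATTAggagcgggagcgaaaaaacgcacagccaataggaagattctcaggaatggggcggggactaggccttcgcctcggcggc
HNRNPH2 upstream: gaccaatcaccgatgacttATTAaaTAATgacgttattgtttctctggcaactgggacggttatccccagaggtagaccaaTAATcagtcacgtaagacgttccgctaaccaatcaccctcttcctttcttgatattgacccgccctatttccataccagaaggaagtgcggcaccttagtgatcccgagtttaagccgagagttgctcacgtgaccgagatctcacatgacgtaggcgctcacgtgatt
HNRNPUL2 upstream: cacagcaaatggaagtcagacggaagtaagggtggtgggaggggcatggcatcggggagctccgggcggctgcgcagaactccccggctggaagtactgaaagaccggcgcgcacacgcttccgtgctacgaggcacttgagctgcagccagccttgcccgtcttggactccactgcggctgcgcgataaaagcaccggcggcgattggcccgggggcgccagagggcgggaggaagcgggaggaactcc
SRSF1 upstream: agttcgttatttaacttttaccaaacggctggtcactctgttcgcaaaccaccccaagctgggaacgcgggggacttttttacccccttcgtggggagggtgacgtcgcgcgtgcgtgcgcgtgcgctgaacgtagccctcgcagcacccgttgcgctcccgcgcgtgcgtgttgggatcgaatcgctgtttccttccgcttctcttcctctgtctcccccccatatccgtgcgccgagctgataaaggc
SRSF6 upstream: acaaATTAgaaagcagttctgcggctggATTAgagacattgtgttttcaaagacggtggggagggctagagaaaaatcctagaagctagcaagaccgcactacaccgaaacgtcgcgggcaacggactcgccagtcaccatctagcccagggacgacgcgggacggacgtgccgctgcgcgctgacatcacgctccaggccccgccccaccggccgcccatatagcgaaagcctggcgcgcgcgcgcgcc
HNRNPAB upstream: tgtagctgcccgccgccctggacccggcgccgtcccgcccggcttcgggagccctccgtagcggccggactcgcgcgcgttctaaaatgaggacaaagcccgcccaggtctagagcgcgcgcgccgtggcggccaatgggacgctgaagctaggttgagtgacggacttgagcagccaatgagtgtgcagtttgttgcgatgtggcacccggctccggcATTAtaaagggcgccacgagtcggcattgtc
SRSF3 upstream: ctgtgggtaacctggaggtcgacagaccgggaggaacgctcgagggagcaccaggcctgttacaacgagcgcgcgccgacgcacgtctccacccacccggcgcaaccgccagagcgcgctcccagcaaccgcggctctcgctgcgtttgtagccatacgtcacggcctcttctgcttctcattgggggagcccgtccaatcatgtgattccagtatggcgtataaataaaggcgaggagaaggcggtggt

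The peaks of HNRNPC, HNRNPH2, HNRNPUL2 and SRSF6 covered all 250 bases of these windows, and that of SRSF1 covered 228. HNRNPC and HNRNPH2 each had 3 matches to TAAT on either strand, which in HNRNPC include both strands of the palindrome TAATTA, and the match closest to the summit lay 13 and 15 bp from it. SRSF6 had 2 matches, and HNRNPUL2 and SRSF1 had none. The windows of HNRNPF and HNRNPLL, not shown, also held their summits and had no match. The windows of HNRNPC and HNRNPH2 were 48.4% and 47.6% G or C, below the median of 64.6% for genes of the list with a peak within 1 kb. Among the genes without a peak, HNRNPAB had 1 match and SRSF3 none. Over the list, 6 of the 16 genes with a peak within 1 kb and a listed start (37.5%) and 3 of the 19 without such a peak had TAAT in the window, as did 40.0% of all 15843 windows. Among the other genes, TAAT was found in 37.7% of windows with a peak within 1 kb and in 40.4% of those without. These matches are a description of the letters, and binding at them was not tested.

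The same windows differed between the families in CCAAT, a common promoter element that can overlap TAAT. This element and the others below were added after the data had been seen. CCAAT or its reverse complement was found in 14 of the 19 hnRNP windows (73.7%) and in 2 of the 12 SR and SR-like windows (16.7%), and in 34.5% of all windows. The 2 SR windows with CCAAT were those of SRSF3 and SRSF8, without an end peak, while SRSF1, SRSF6 and SRSF7, with one, lacked it. Of the hnRNP windows with an end peak, all but HNRNPD, HNRNPK and HNRNPUL1 had CCAAT. Without an end peak, HNRNPA3, HNRNPAB, HNRNPDL, HNRNPL and HNRNPU had it, and HNRNPH1 and HNRNPM did not. Most hnRNP windows thus had CCAAT both with and without an end peak, and within neither family did it set the genes with an end peak apart. Among the other genes, it was found in 49.4% of windows with an LV-HOXA5 peak within 1 kb and in 32.0% of those without. The letters GGGCGG, a GC box, were found in 15 of the 19 hnRNP windows (78.9%), in 5 of the 12 SR and SR-like windows (41.7%) and in 55.8% of all windows. CCGGAAG, the core of ETS factors, was found in 7 of the 35 windows of the list and in 11.8% of all. Their part in the peaks was not tested.

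Among the other protein-coding genes, the share with a peak varied with the number of CpG dinucleotides and with the nearness of another gene. The splicing factor genes had a median of 26.0 CpG in the window (range 2 to 38), and all protein-coding genes a median of 17.0. Within the list, the median was 25.0 CpG for genes with a peak within 1 kb and 26.0 for those without. Among other genes, a peak within 1 kb was found at 3.21% of those with 0 to 6 CpG, 18.5% of those with 7 to 17, 20.9% of those with 18 to 26 and 12.5% of those with 27 to 59. In the same classes, the counts in the list were 0 of 1, 3 of 4, 7 of 15 and 6 of 15 genes. For hnRNP genes against SR and SR-like genes, the counts were 2 of 3 and 1 of 1 in the class of 7 to 17 CpG, 7 of 9 and 0 of 5 in that of 18 to 26, and 3 of 7 and 2 of 5 in the highest. The medians of both families were the same, 25.0 CpG.

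**Figure D4:**
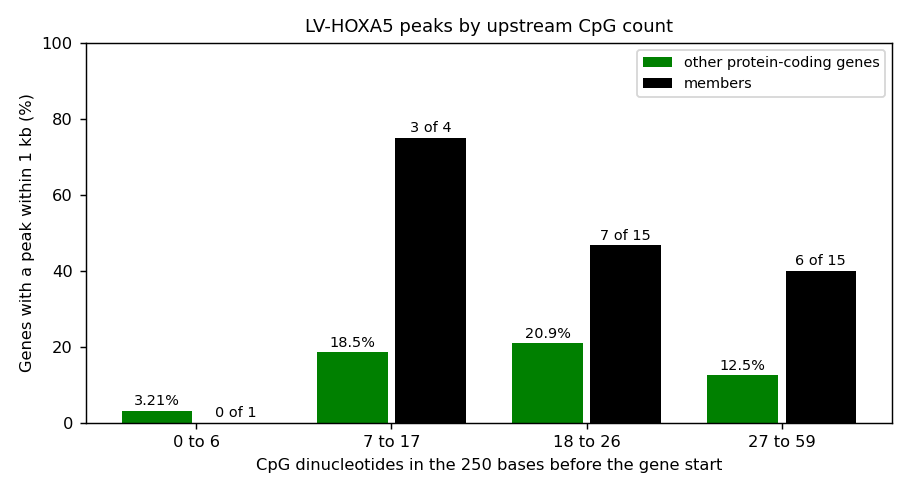
Percent of genes with an end peak in LV-HOXA5 (y axis) by the number of CpG dinucleotides in the 250 bases before the outermost listed start (x axis), for the other protein-coding genes (green) and the splicing factor genes (black, with counts). In the classes of 7 or more CpG the black bars stand at 3 of 4, 7 of 15 and 6 of 15 genes, and the green bars at 18.5%, 20.9% and 12.5%.

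A protein-coding gene with another such gene's end within 1 kb of its own may share a peak with it. Of the other genes with such a neighbour, 20.2% had an end peak in LV-HOXA5, and of those without, 9.96%. In the list, 9 of 16 genes with a neighbour and 9 of 22 genes without had one, and for hnRNP genes these counts were 6 of 9 and 7 of 11. At 8 of the 18 peaks within 1 kb, an end of another protein-coding gene also lay within 1 kb of the peak, namely CCDC106, MFSD11, CBX5, CBX3, GLA, PBLD, RMI1 or TTC9C. To which of the 2 genes such a peak belongs cannot be told apart here.

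In the LV-HOXA5-NC list, none of the 38 genes had an end peak, or one within 3 kb or inside, which allows a share of up to 7.89%. Of the other protein-coding genes, 0.0699% and 0.649% had one, so a count of 0 in a list of this size is near the background. The LV-HOXA5-NC peak nearest to any of the 38 genes lay 176 kb from U2AF2. No LV-HOXA5 peak at these genes overlapped a control peak. In number of fragments, the control came to 12.4% of LV-HOXA5. Scaled by this factor, the pileups of the 21 peaks came to between 1.24 fragments at HNRNPK and 8.89 at HNRNPL, and the lowest pileup in the control list was 4 fragments. Besides HNRNPL, only HNRNPA1 (5.68 fragments), HNRNPUL1 (5.43) and HNRNPC (5.31) reached that value. HNRNPL and HNRNPUL1 also had the highest local backgrounds of the 21 peaks, 11.5 and 7.70 fragments before scaling. At the other 17 genes, the scaled pileup was under that of every control peak, and a site of the same density was less likely to be listed at this depth. At HNRNPA0 it was 3.95 fragments, at SRSF2, U2AF2 and HNRNPA2B1 3.46, and at HNRNPH2 and HNRNPUL2 2.96. The upper bounds of the scaled intervals of these genes lay past 4 fragments. Whether the total number of fragments is a fair scale at these genes was not tested.

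**Figure D5:**
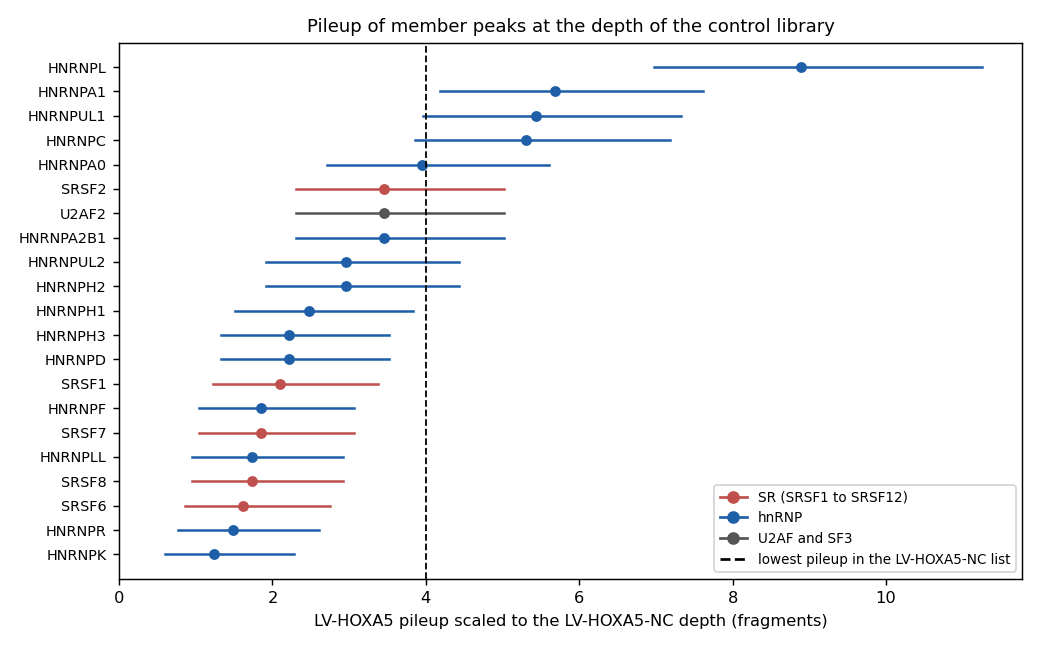
Pileup of the 21 LV-HOXA5 peaks at splicing factor genes scaled to the number of control fragments (x axis, fragments), with exact 95% Poisson intervals of the LV-HOXA5 pileup scaled in the same way. The dashed line is the lowest pileup in the LV-HOXA5-NC list, 4 fragments, which 4 genes (HNRNPL, HNRNPA1, HNRNPUL1 and HNRNPC) exceed.

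Other genes of RNA splicing were counted in the same way in 6 lists with 96 genes. An end peak in LV-HOXA5 was found at 27 of them (28.1%, interval 19.4% to 38.2%), a share between those of the hnRNP genes and of the protein-coding genes at large. The share of the SR and SR-like genes, 28.6%, was close to it. Among the proteins of the snRNPs, the RNA-protein particles at the center of the spliceosome, 6 of 18 genes had one, and the highest fold enrichments were those of SNRPA (5.86) and SNRPG (5.31). Of the other SF3 and PRPF genes 6 of 21 had one, with SF3B6 (7.18) and SF1 (6.66) in front, both of which act at the branch point. Of 23 further RNA-binding regulators 10 had one, led by TIAL1 (6.37) and SFPQ (5.84). Of the hnRNP-related genes with other names, 3 of 13 did (23.1%, interval 5.04% to 53.8%), RALY (24 fragments), SYNCRIP (15 fragments) and PTBP3 (13 fragments), and RALY is the closest relative of HNRNPC among them. In the exon junction complex and export list, 2 of 11 had one (18.2%), DDX39B (5.28) and CASC3 (4.06). None of the 10 genes for kinases and import of SR proteins did, and 1 of them had a peak inside or within 3 kb. In the hnRNP-related list, the share of 23.1% was below the 65.0% of the 20 listed hnRNP genes and near the 28.1% of all 96 genes. The intervals of the 23.1% and the 65.0% overlapped, and the difference was not tested. The high share is thus that of the 20 listed genes and was not seen in this list of related genes. At the 12.9% of the other protein-coding genes, the export list and the kinase list would hold few such genes, and nothing is read from their counts. No gene of the 6 lists had an LV-HOXA5-NC peak by either definition.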

How the data were processed

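CUT & Tag was performed on nuclei of TFK-1 cells with an anti-Flag antibody, with 1 library from LV-HOXA5 cells and 1 from LV-HOXA5-NC cells, which were grouped by the treatment labels. The submitters' processing notes name fastp, Bowtie2, deepTools, MACS2 and ChIPseeker and the build GRCh38, without versions. Per the file headers, the authors removed duplicates and ran MACS 2.2.7.1 on either library alone, on fragments from paired ends, with no control file and a q-value of 0.05. The deposited tables give the pileup signal (fragments, not scaled for depth), the ratio of pileup to local background (fold enrichment) and the −log10 of the q-value and p-value. A narrowPeak version, deposited with an integer score, held the same 8043 and 635 peaks.

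Distances ran between a peak's closer edge and the closer end of a RefSeq gene (GRCh38.p14, no exons), or to starts computed from RefSeq promoter windows, of which only the 250 bases before the start were searched, on both strands. The local background was computed as (pileup + 1) / fold − 1. Shares have Clopper-Pearson and pileups Poisson intervals at 95%, and the limit for a count of 0 is 3 over the total. No test was run. Distances were checked on simulated peaks. The members and lists were chosen with earlier results of these data known, and the letters other than TAAT were added after the data had been seen. All 38 genes were described, and of each further list the 2 genes with the highest fold enrichment, with SYNCRIP named after its values were seen. PRPF4B was matched by synonym. Alternatives were stricter q-values and folds, the summit, gene starts, other limits, peaks without a control peak, and SRSF1 to SRSF12 only. Python 3.11.15, NumPy 2.4.6, SciPy 1.17.1, pandas 2.3.3 and Matplotlib 3.10.9 were used. RNA levels were not analysed here.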

Additional observations from a re-analysis of the deposited data

How the results depend on the processing

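Of 40 comparisons with an alternative, 36 kept the value within 1.5 times the reported one or at 0, and none turned the direction. Many of the 36 could not change, so this number says little about how firm the results are. No peak of these genes overlapped a control peak, so leaving out such peaks removed nothing. Each gene had 1 peak, so taking the highest peak within 1 kb gave the same values. The counts in LV-HOXA5-NC were also fixed. The 4 comparisons that moved were among the rest. With only the peaks whose fold enrichment reached the list's median, fewer by construction, 9 of the 38 genes had an end peak in LV-HOXA5 and 11 had one within 3 kb or inside, while the shares of the other genes fell to 6.91% and 11.2%. With a q-value of 0.001 or less, the difference between hnRNP and SR genes was 21.4 percentage points within 1 kb and 24.3 within 3 kb or inside, in place of 36.4 and 39.3, because 3 hnRNP peaks and no SR peak were lost. With SRSF1 to SRSF12 only it was 31.7 and 33.3 points. The count of 0 in LV-HOXA5-NC could not change under any setting tried, since the nearest control peak lay 176 kb from these genes. With 1 library per group, no library could be left out, and the depth of the control limits what it can show, most of all at 17 of the 21 genes.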

Other observations

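Processed pseudogenes, which are copies of an mRNA put back into the genome without the promoter of the gene, are frequent for several hnRNP genes. The RefSeq table lists 140 pseudogenes named after the 38 genes, 75 of them after HNRNPA1, 17 after HNRNPA3 and 9 after HNRNPC. None of the 140 had a peak in LV-HOXA5 inside it or up to 3 kb away, and none had an LV-HOXA5-NC peak within 1 kb. Of all 17088 pseudogenes of the table, 530 had one in LV-HOXA5 inside or up to 3 kb away, and 257 no more than 1 kb from an end, a share at which few of 140 would have one. The difference from the 140 was not tested. HNRNPA1 and HNRNPC themselves had peaks of 46 and 43 fragments, and HNRNPA3 had none. How well fragments align uniquely at such copies was not tested.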
